A study of Mus musculus with 24 samples.

Results

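Cohesin and separase control was described through 10 of the 55471 annotated mouse genes. They were chosen by name and mapped to Ensembl gene identifiers: the meiotic cohesin subunits Rec8, Smc1b and Stag3, the mitotic subunits Rad21, Stag1 and Stag2, the shared subunit Smc3, and Sgo2a, Espl1 and Pttg1, which govern when cohesin is cut. All 10 symbols matched 1 identifier each. The SLIM-seq experiment, a low-input form of m6A immunoprecipitation sequencing, held 3 IP and 3 input libraries from each of MII oocytes, late 1-cell (L1C) embryos and late 2-cell (L2C) embryos. The knockdown experiment held L2C embryos that had been injected as early zygotes with Cas13d mRNA plus 3 crRNAs against the m6A reader Ythdc1 (KD, 3 libraries) or with Cas13d mRNA alone (Ctrl, labelled NC, 3 libraries). All oocytes came from wild-type, superovulated B6D2F1 females of 8 weeks, and the embryos from such females mated with B6D2F1 males. Each library was made from pooled oocytes or embryos, and the Ctrl embryos received no crRNA, so an effect of any crRNA and an effect of losing Ythdc1 cannot be told apart. Nothing in the labels states that replicates of a group came from separate females, so p-values measure only the spread between these libraries, which may be technical.

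Cohesin is a ring that holds sister chromatids together from replication until anaphase. In meiosis the kleisin Rad21, the SMC protein Smc1a and the HEAT-repeat subunits Stag1 and Stag2 are largely replaced by Rec8, Smc1b and Stag3, while Smc3 is used in both rings. The protease separase, encoded by Espl1, opens the ring by cutting the kleisin. It is held inactive by securin, encoded by Pttg1, until the anaphase-promoting complex destroys securin. Shugoshin 2, encoded by Sgo2a, guards centromeric Rec8 in the first meiotic division. An MII oocyte is arrested with sister chromatids still joined by Rec8 cohesin, and the embryo that follows divides by mitosis.

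SLIM-seq libraries held 11107421 to 39739950 estimated counts, and the KD and Ctrl libraries that cover the whole annotation held 8696476 to 14500548 counts. The oocyte marker list of 9 genes summed to 18860 to 19870 normalised CPM (each count relative to its library's total after TMM scaling) in MII inputs and to 878 to 907 in L2C inputs. The 2-cell list of 8 genes went from 29.9 to 35.8 at MII up to 523 to 711 at L2C. A list of 12 cumulus and granulosa cell markers summed to 25.8 to 26.8 at MII, led by Cyp11a1 at 13.9, and to 13.7 to 13.9 at L1C, led by Star at 3.15. It summed to 248 to 270 at L2C, where Amhr2 alone averaged 256. Of the 12, 9, 10 and 9 had over 3 counts in an input at MII, L1C and L2C, and Ptx3 was at 0 at each stage. A sperm list of 6 genes stayed at 2.84 to 3.73 in MII and L1C inputs and reached 55.5 to 73.6 at L2C, of which Prm1 averaged 61.8 and Tnp1 and Akap4 were at 0. The part of these 2 lists in the values at L2C was not tested. The labelled stages followed the oocyte and 2-cell markers.

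GGACT is the form of the m6A consensus that the methyltransferase prefers, and the members differ in how many copies their RNA holds. In the longest protein-coding transcript of GENCODE M21, Smc1b holds no GGACT in 4047 bases, Espl1 holds 7 in 6658 bases, Stag3 holds 6 in 4211 bases, Rec8 holds 2 in 2184 bases and Rad21 holds 1 in 3956 bases. Per kilobase these are 0, 1.05, 1.43, 0.916 and 0.253 copies, against a median of 1.01 over 21901 protein-coding genes. Stag1 and Stag2 hold 5 each, Smc3 holds 3 and Sgo2a 1. Pttg1 holds 1, after its coding sequence. The shorter GGAC is more frequent, with 7 copies in Smc1b, 28 in Espl1, 25 in Stag3, 8 in Rec8 and 8 in Rad21. Per kilobase Smc1b holds 1.73 copies of GGAC, against a median of 3.935 over the protein-coding genes. The last GGACT of the coding sequence is shown in capitals, with 10 bases on each side, for Espl1, Stag3 and Rec8, which the anti-m6A IP recovered below input in embryos, for Rad21, recovered above input in embryos, and for Stag2, whose recovery differed between stages. Coordinates are of GRCm38 and each window lies within 1 coding exon.
Espl1 (chr15:102317101-102317125, + strand, exon 20): tgttgagacgGGACTccagcaaggc
Stag3 (chr5:138299771-138299795, + strand, exon 19): tcagcagagtGGACTttgccagaag
Rec8 (chr14:55625099-55625123, + strand, exon 19): acaaggagctGGACTtcagcagcct
Rad21 (chr15:51967888-51967912, - strand, exon 11): gccgcctccaGGACTcagtgatgga
Stag2 (chrX:42269470-42269494, + strand, exon 32): atgagggaatGGACTttgacaccat
The letters are matches to the consensus, and no site was measured, since the IP counts are sums over a gene.

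The question for the inputs was how the RNA of the oocyte's meiotic ring and of the mitotic ring changed from MII to L2C. Rec8 had 0 counts in all 3 MII inputs. It had 25.4, 30.0 and 21.0 estimated counts in the L1C inputs and 41.6, 27.0 and 55.3 in the L2C inputs, which are 1.20 ± 0.17 and 1.36 ± 0.07 normalised CPM (SD, n = 3). The MII libraries and the embryo libraries did not overlap. Against a floor of 3 counts per MII library, Rec8 RNA was at least 8.02-fold higher at L1C and at least 9.12-fold higher at L2C. Rec8 passed the filter on low counts only through the embryo libraries, so no p is given for these steps. L1C and L2C did not differ beyond their spread (log2 change 0.20 ± 0.34 SE, adjusted p = 0.6, edgeR's quasi-likelihood test with Benjamini-Hochberg adjustment over all genes tested, as for every adjusted p of a gene). Rec8 (GRCm38, chr14:55618037-55625395) lies 5 bases from Ipo4. All levels are relative to the library, and in pooled samples fewer cells of a kind and less RNA per cell cannot be told apart. By the paper's methods, reverse transcription started from an oligo-dT primer, which binds the poly(A) tail. In the inputs a change in tails and a change in the amount of an RNA therefore cannot be told apart.

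Stag3 (chr5:138280240-138312393) RNA rose at each step. Its normalised CPM was 2.07, 1.40 and 1.75 in the MII inputs, 5.03, 5.29 and 5.76 at L1C, then 18.5, 17.0 and 17.7 at L2C. The 3 stages did not overlap. The log2 change was 1.62 ± 0.20 from MII to L1C (adjusted p = 1.3e-05) and 1.73 ± 0.18 from L1C to L2C (adjusted p = 4.3e-07). Smc1b (chr15:85064689-85131964) went the other way, with 14.7, 16.4 and 16.0 normalised CPM at MII, 9.38, 8.11 and 7.14 at L1C, then 6.43, 5.88 and 8.00 at L2C. MII stood above the other 2 stages, which overlapped. The log2 change of Smc1b was -0.93 ± 0.18 from MII to L1C (adjusted p = 0.00054), and its change of -0.27 ± 0.18 from L1C to L2C did not pass (adjusted p = 0.18). The second step passed when the inputs were scaled and fitted together with the IP libraries (-0.51, adjusted p = 0.013). The 3 meiotic subunits had 3 different courses.

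Smc3 (chr19:53600398-53645833), the subunit of both rings, was high in oocytes, low at L1C and high again at L2C. Its normalised CPM was 174.0, 174.7 and 201.5 at MII, 22.8, 18.7 and 17.4 at L1C, then 106.8, 94.4 and 113.2 at L2C. The 3 groups did not overlap. The log2 change was -3.22 ± 0.14 from MII to L1C (adjusted p = 4.9e-10) and 2.42 ± 0.14 from L1C to L2C (adjusted p = 8.2e-10). Rad21 (chr15:51962240-51991747), the mitotic kleisin, held 22.0, 23.4 and 27.5 normalised CPM at MII and 21.0, 17.3 and 18.0 at L1C, with all L1C libraries below all MII ones. It stood at 83.8, 71.8 and 82.2 at L2C. Its fall of 0.37 on the log2 scale from MII to L1C (adjusted p = 0.039) was not called without MII replicate 2 or 3 or L1C replicate 2 or 3 (-0.41 to -0.28), with scaling by library size (-0.32) or with only the stages compared (-0.36). The rise from L1C to L2C was 2.08 ± 0.14 (adjusted p = 5.2e-09).

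Stag1 (chr9:100597798-100959375) and Stag2 (chrX:42149317-42277185), the alternative HEAT-repeat subunits of the mitotic ring, did not change between MII and L1C beyond their spread. Stag2 held 16.1, 21.7 and 18.9 normalised CPM at MII, 20.8, 17.6 and 11.5 at L1C, then 59.3, 38.0 and 49.8 at L2C. Only the L2C libraries stood apart. The log2 change from L1C to L2C was 1.56 ± 0.22 (adjusted p = 1.2e-05). Stag1 held 34.0, 46.0 and 46.2 normalised CPM at MII, 46.8, 38.1 and 36.2 at L1C, then 66.0, 45.8 and 59.4 at L2C, so all 3 stages overlapped. The step of Stag1 from L1C to L2C was 0.50 ± 0.17 (adjusted p = 0.014). That call was lost without L1C replicate 2 (0.45), L1C replicate 3 (0.42) or L2C replicate 1 (0.38), and in the fit of inputs and IP libraries together (0.26, adjusted p = 0.12).

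The regulators of cleavage moved apart from one another. Pttg1 (securin, chr11:43420250-43426251) held 4316, 4373 and 4871 normalised CPM at MII, 2856, 2847 and 3453 at L1C, then 852, 945 and 862 at L2C, with no overlap between stages. It fell by 0.57 on the log2 scale from MII to L1C (SE 0.12, adjusted p = 0.00098) and fell by 1.78 from L1C to L2C (SE 0.12, adjusted p = 4.1e-09). Espl1 (separase, chr15:102296266-102324357) followed the shape of Smc3, with 343.5, 396.7 and 388.1 normalised CPM at MII, 85.2, 126.5 and 123.3 at L1C, then 372.9, 442.2 and 387.8 at L2C. The L1C libraries were low, and those of MII and L2C overlapped. The log2 change of Espl1 was -1.75 ± 0.15 from MII to L1C (adjusted p = 4.3e-07), 1.85 ± 0.15 from L1C to L2C (adjusted p = 4e-08) and 0.09 ± 0.15 over both steps (adjusted p = 0.56). Sgo2a (chr1:57995971-58025899), the centromere protector, held 59.0, 76.9 and 92.6 normalised CPM at MII, 67.9, 60.9 and 46.4 at L1C, then 17.4, 10.3 and 13.2 at L2C. MII and L1C overlapped, and L2C was below both. Sgo2a fell by 2.09 on the log2 scale from L1C to L2C (SE 0.22, adjusted p = 4.5e-07). Its change of -0.38 ± 0.21 from MII to L1C did not pass (adjusted p = 0.13) unless MII replicate 1 (-0.54) or the filter on low counts (-0.43) was left out. Kctd18, on the opposite strand, overlaps 22986 bases of the span of Sgo2a and went from 72.7 to 75.3 normalised CPM in MII inputs to 257 to 339 in L2C inputs on the scale of all 18 libraries. Reads of these genes cannot be told apart where they overlap, as the strand setting of that counting is not given in the sources used here.

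Rec8, which the filter kept only for its embryo libraries, is left out of the counts from MII. Of the other 9 genes, 1 rose from MII to L1C (Stag3) and 5 fell (Smc3, Espl1, Smc1b, Pttg1 and Rad21), while 31.9% of all 19903 genes tested rose and 24.3% fell. The median log2 change was -0.38 over the 9 genes and 0.16 over all genes tested. From L1C to L2C 6 of the 10 genes rose (Smc3, Rad21, Espl1, Stag3, Stag2 and Stag1) and 2 fell (Sgo2a and Pttg1), against 44.1% and 38.8% of all genes. The medians were 1.03 and 0.17. Over both steps 4 of the 9 rose and 4 fell, against 47.5% and 37.1% of all genes, with medians of 0.09 and 0.40. Most genes in the embryo changed at these steps, so a call on its own sets none of the 10 apart. Scaling by library size shifted the median of all genes by 0.14 from MII to L2C. The fit of all 18 libraries shifted it by -0.22 from L1C to L2C and by -0.21 from MII to L2C. In that fit the rise of Stag1 over both steps, 0.44 (adjusted p = 0.025), became 0.12 (adjusted p = 0.46), and that rise was also not called without MII replicate 1 (0.29), L2C replicate 1 (0.32) or L2C replicate 3 (0.40).

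**Figure D1:**
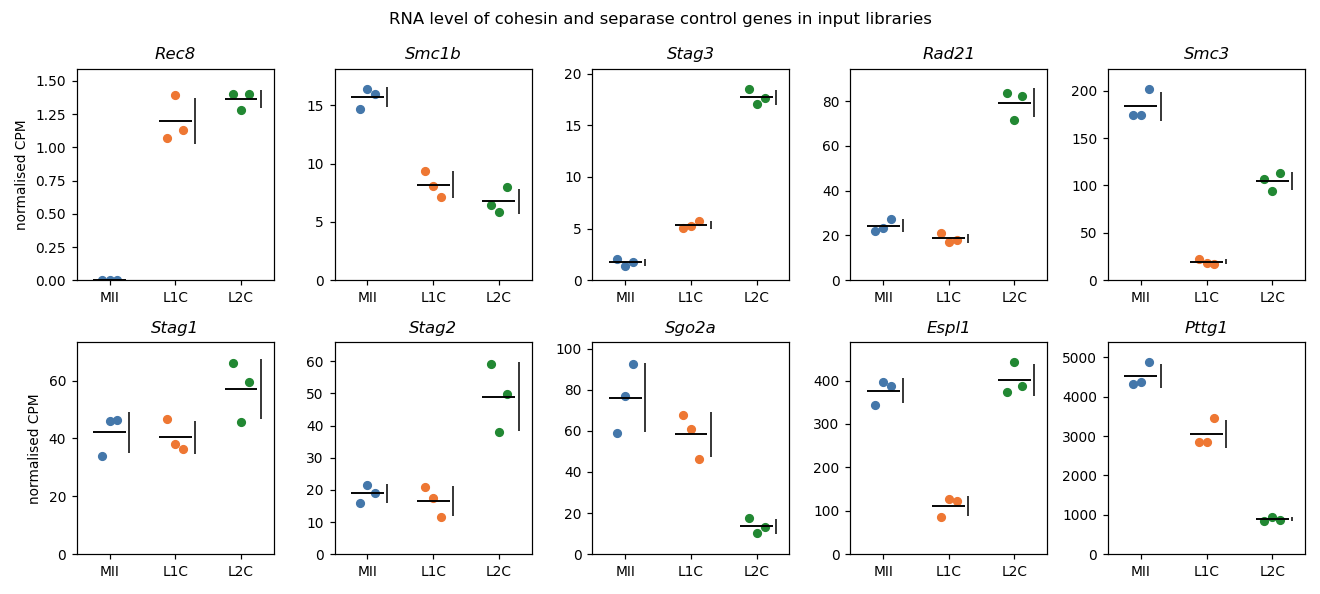
Normalised CPM (y axis, linear, starting at 0) of each of the 10 genes in the 9 input libraries, by stage (x axis). Points are libraries, horizontal bars are means and vertical bars beside them span 1 SD either way (n = 3). Rec8 sits at 0 at MII, Stag3 climbs at each stage to 17.0 to 18.5, and Smc3 and Espl1 dip at L1C.

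Levels of different genes were compared per kilobase of annotated exon. Pttg1 led at each stage, from 2260 ± 153 normalised CPM per kilobase at MII to 443 ± 25 at L2C (SD, n = 3), and Espl1 came next at 43.0 ± 3.3 at MII. At MII the order went on with Smc3 (33.1 ± 2.8), Sgo2a (10.9 ± 2.4) and Rad21 (5.74 ± 0.68). Smc1b (3.88 ± 0.22) and Stag1 (3.57 ± 0.59) did not differ beyond their spread. Stag2 (2.28 ± 0.34) and Stag3 (0.303 ± 0.058) followed, with Rec8 at 0. At L2C Rad21 (18.7 ± 1.5) and Smc3 (18.9 ± 1.7), kleisin and SMC protein of the mitotic ring, did not differ beyond their spread. Stag2 (5.93 ± 1.29) and Stag1 (4.84 ± 0.87) overlapped, and Stag3 (3.09 ± 0.13) lay below both. Smc1b (1.67 ± 0.27) and Sgo2a (1.94 ± 0.51) overlapped, and Rec8 was lowest at 0.464 ± 0.023. At L1C the order was Espl1 (12.8 ± 2.6), Sgo2a (8.33 ± 1.56) and Rad21 (4.44 ± 0.47), followed by Smc3 (3.54 ± 0.51) and Stag1 (3.43 ± 0.48). Smc3 overlapped both Rad21 and Stag1. Smc1b (2.03 ± 0.28) and Stag2 (2.01 ± 0.57) overlapped as well, and Stag3 (0.935 ± 0.065) and Rec8 (0.408 ± 0.058) were lowest. In SLIM-seq the authors' quantification counted reads over whole gene spans, introns included. A level per exon can therefore include reads of introns, and the span is longest for Stag1, with 361578 bases. The Ctrl L2C embryos of the knockdown experiment, injected and counted with another tool, gave another order. Their means per kilobase (n = 3) were Pttg1 738, Rad21 97.4, Smc3 46.4, Stag2 14.3, Espl1 11.1 and Sgo2a 10.1. Below these came Smc1b at 6.70, Stag1 at 4.08, Stag3 at 1.59 and Rec8 at 0.21. What set the 2 orders apart was not tested.

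Each meiotic subunit was then set against its mitotic counterpart within the same library, which removes the scaling between libraries. In the deposited TPM, which divide by the whole gene span, the log2 ratio of Stag3 to Stag1 averaged -1.10, 0.60 and 1.83 at MII, L1C and L2C. Per kilobase of exon, a scale added after seeing the data, it was -3.00, -4.00 and -3.69 at MII, -2.18, -1.81 and -1.61 at L1C, then -0.80, -0.39 and -0.71 at L2C. The stages did not overlap, and Stag3 stayed below Stag1 on this scale. Which gene is higher depended on the length used, while the change from MII to L2C was 2.93 on both scales. An exact permutation test over the 9 inputs in 3 stages, done on the TPM and giving the same p per exon, gave p = 0.0036, the smallest it can give (0.0089 adjusted over 5 pairs). For Stag3 to Stag2 the log2 ratio per exon averaged -2.92, -1.06 and -0.92 at MII, L1C and L2C (exact permutation p = 0.025, adjusted 0.031). For Smc1b to Smc1a it averaged -1.72, -2.46 and -2.44 (exact permutation p = 0.036, adjusted 0.036), with MII above both embryo stages. The SD within a stage was 0.17, 0.20 and 0.09 (n = 3). The change of this pair from MII to L2C, -0.72, became 0.16 with a pseudocount of 1 added to the TPM.

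Rec8 to Rad21 could be set only in embryos, since Rec8 was at 0 at MII. The log2 ratio per exon was -3.77, -3.11 and -3.46 at L1C and -5.37, -5.28 and -5.35 at L2C, with no overlap. It dropped by 1.89 from L1C to L2C on either length scale, as Rad21 rose and Rec8 did not. This ratio was not tested, since it has no value at MII, where a pseudocount would set it, and 3 libraries against 3 cannot give an exact permutation p below 0.1. Within the mitotic ring, Stag1 to Stag2 averaged 0.64, 0.81 and -0.28 per exon at MII, L1C and L2C (exact permutation p = 0.018, adjusted 0.03). Stag1 led in oocytes and L1C embryos on this scale and Stag2 led at L2C, whereas in TPM Stag2 led on average at all 3 stages (-0.35, -0.19 and -1.28). Separase to securin, Espl1 to Pttg1, averaged -5.72 ± 0.11, -6.92 ± 0.29 and -3.28 ± 0.05 per exon (SD, n = 3 libraries a stage). The exact permutation p was 0.0036 (adjusted 0.0089), and each L2C input lay above each input of the other stages. The Ctrl L2C embryos of the knockdown experiment did not show this high ratio. In them Espl1 averaged 11.1 and Pttg1 738 normalised CPM per kilobase, against 45.8 and 443 in the L2C inputs.

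**Figure D2:**
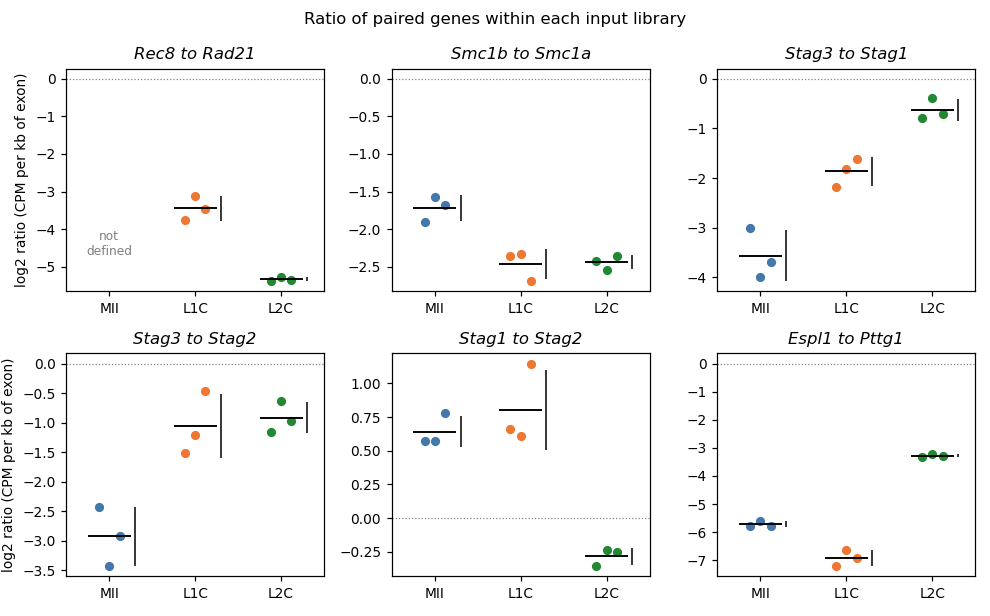
Log2 ratio of the first gene to the second, in CPM per kilobase of exon (y axis), in each of the 9 inputs by stage (x axis). Points are libraries, horizontal bars are means and vertical bars span 1 SD either way, and the dotted line marks equal levels. Stag3 gains on Stag1 at each stage, and the ratio of Espl1 to Pttg1 is highest at L2C.

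By likeness of course over the 9 inputs, the protein-coding genes closest to Rec8 among 15278 were Gm28539, E4f1 and Arhgap39 (Pearson r of log2 CPM of 0.999, 0.998 and 0.998). Those closest to Stag3 were Kank3, Actn2 and Psmb7 (0.997, 0.997 and 0.996). For Smc1b they were the oocyte-secreted Oosp1, Kmt2e and Dnajc10 (0.994, 0.991 and 0.986). The 9 libraries form 3 stages of 3, so such values mostly say that stage means have the same shape.

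The IP libraries ask how much of each RNA the anti-m6A antibody recovered relative to input, within a stage. Smc1b, whose transcript holds no GGACT but 7 copies of GGAC, was the meiotic subunit recovered above input. Its log2 ratio of IP to the mean of the 3 inputs was 1.08, 0.68 and 1.31 at MII, 0.90, 1.07 and 1.05 at L1C, then 1.08, 1.41 and 1.07 at L2C. All 9 IP libraries were above 0 and the stages overlapped. The fitted log2 IP/input was 1.04 ± 0.17 (adjusted p = 6.2e-05), 1.01 ± 0.17 (adjusted p = 0.00015) and 1.18 ± 0.17 (adjusted p = 2.5e-05). Rec8 and Stag3 lay below input. Rec8 gave -1.35, -1.56 and -1.39 at L1C and -1.49, -1.46 and -1.25 at L2C, from 7.1 to 23.8 estimated counts per IP library, with fitted values of -1.42 ± 0.35 (adjusted p = 0.0052) and -1.39 ± 0.34 (adjusted p = 0.0042). At MII it had 0 counts in IP and input. Stag3 gave -0.61, -0.88 and -0.33 at MII, -0.76, -0.72 and -0.93 at L1C, then -1.61, -1.30 and -1.55 at L2C. The L2C libraries were lower than all others. Its fitted log2 IP/input was -0.80 ± 0.18 at L1C (adjusted p = 0.0016), then -1.49 ± 0.17 at L2C (adjusted p = 1.4e-06). At MII, with 22 to 48 counts per library, it was -0.60 ± 0.21 (adjusted p = 0.032), a call lost without input replicate 1 or 3 or IP replicate 1 or 2 (-0.61 to -0.43), with DESeq2 (-0.54), with only the stages compared (-0.54), without the filter on low counts (-0.60) and with scaling by library size (-0.36).

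Espl1 was the member recovered least. Its log2 ratio was -2.99, -2.83 and -2.99 at MII, -2.16, -2.22 and -1.89 at L1C, then -1.92, -2.35 and -2.08 at L2C, so every IP library was far below input. The fitted values were -2.93 ± 0.15 (adjusted p = 5.1e-11), -2.08 ± 0.15 (adjusted p = 6.6e-09) and -2.10 ± 0.15 (adjusted p = 4.9e-09). Its inhibitor Pttg1 was recovered above input at MII and L1C, and at L2C it passed with scaling by library size (0.41) but not with TMM. Pttg1 gave 0.75, 0.62 and 0.69 at MII, 0.71, 0.52 and 0.42 at L1C, then -0.04, 0.37 and 0.10 at L2C. The fitted log2 IP/input was 0.69 ± 0.12 at MII (adjusted p = 0.00015), 0.56 ± 0.12 at L1C (adjusted p = 0.0014), then 0.15 ± 0.12 at L2C (adjusted p = 0.32). For Sgo2a the values were 0.16, -0.35 and 0.23 at MII, 0.04, 0.20 and 0.38 at L1C, then 0.22, 1.47 and 0.15 at L2C. IP replicate 2 at L2C stood apart, and no stage passed. Kctd18, which overlaps Sgo2a, rose in the IP libraries too, from 24.1 to 26.7 normalised CPM at MII to 330.1 to 345.1 at L2C, and its part in the Sgo2a values was not tested. Sgo2a at L2C (0.72 ± 0.29, adjusted p = 0.054) passed with DESeq2 (0.77) and without input replicate 1 (0.93), IP replicate 1 (0.93) or IP replicate 3 (0.95). Without IP replicate 2 it was 0.17, the lowest of its leave-out values, and it did not pass. It also passed with scaling by library size (0.98) and without the filter on low counts (0.66).

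Among mitotic subunits, Stag2 was recovered below input at MII and L1C and was not called at L2C. Its log2 ratio was -1.06, -1.62 and -0.97 at MII, -0.88, -0.77 and -0.99 at L1C, then 0.24, 0.33 and 0.44 at L2C, with every L2C library above every earlier one. The fitted log2 IP/input was -1.19 ± 0.22 at MII (adjusted p = 0.0002), -0.88 ± 0.21 at L1C (adjusted p = 0.0032), then 0.34 ± 0.20 at L2C (adjusted p = 0.19). Stag1 also had all 6 earlier IP libraries below 0 and all 3 L2C libraries above it, at -0.39, -0.59 and -0.28 at MII, -0.42, -0.34 and -0.28 at L1C, then 0.34, 0.60 and 0.51 at L2C. Its fitted value was -0.42 ± 0.15 at MII (adjusted p = 0.039), -0.34 ± 0.15 at L1C (adjusted p = 0.094) and 0.49 ± 0.15 at L2C (adjusted p = 0.015). The MII call was lost without input replicate 2 or 3 or IP replicate 1 or 2 (-0.43 to -0.34), with DESeq2 (-0.35), with only the stages compared (-0.37), without the filter on low counts (-0.41) and with scaling by library size (-0.18), and the L2C call without input replicate 2 (0.33) or IP replicate 2 (0.42). Rad21 was not called at MII, with a fitted 0.10 ± 0.12, and was above input by 0.37 ± 0.12 at L1C (adjusted p = 0.02), then 0.39 ± 0.12 at L2C (adjusted p = 0.01). Its L1C call was lost without input replicate 2 or 3 or IP replicate 1 or 2 (0.32 to 0.34) and with only the stages compared (0.37, adjusted p = 0.056), its L2C call without input replicate 2 (0.30), and both without the filter on low counts (0.37 and 0.34). Smc3 did not pass at any stage, with fitted values of 0.01 ± 0.13, 0.24 ± 0.14 and 0.31 ± 0.13, and passed at L2C without IP replicate 1 (0.39). Scaled by library size, Rad21 passed at MII (0.34), Smc3 at L1C (0.55) and L2C (0.57), and Stag2 at L2C (0.59).

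In counts, 2 members were higher and 4 lower in IP than in input of the 9 tested at MII, against 17.7% and 21.0% of all 21950 genes tested. At L1C 3 were higher and 4 lower of 10 (15.8% and 18.2% of all genes), and at L2C 3 were higher and 3 lower (22.0% and 22.0%). The median log2 IP/input of the members was 0.01, -0.07 and 0.32 at the 3 stages, and that of all genes tested 0.0, 0.07 and 0.09. The count of 4 lower members at MII became 2 without input replicate 3, IP replicate 1 or IP replicate 2. The count of 3 higher members at L2C became 1 without input replicate 2 and 5 without IP replicate 1. By thresholds adapted from the study for an m6A-tagged RNA (log2 IP/input above 0, unadjusted P of edgeR under 0.05 and over 1 count in each input, without its rules for a missing P and for replicates), Smc1b and Pttg1 were tagged at MII, Smc1b, Rad21 and Pttg1 at L1C, and Smc1b, Rad21, Smc3, Stag1 and Sgo2a at L2C. These thresholds tag 19.2%, 18.6% and 23.9% of all genes. Scaling by library size, in place of TMM, raised the median of all genes by 0.20, 0.30 and 0.25 at the 3 stages, and recovery is relative to that median.

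**Figure D3:**
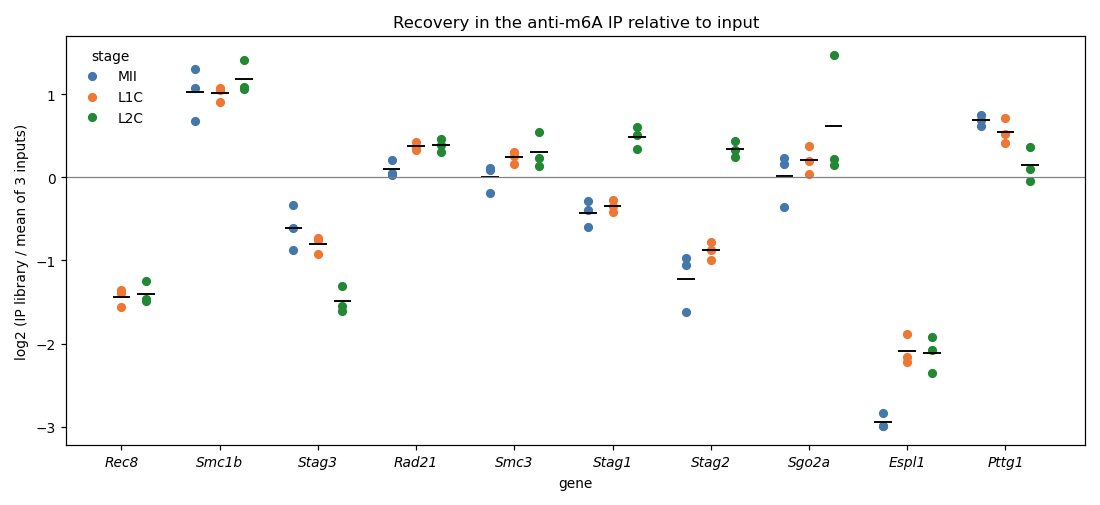
Log2 ratio of each IP library to the mean of the 3 inputs of its stage (y axis) for the 10 genes (x axis), coloured by stage. Points are IP libraries and black bars are their means, and Rec8 has no value at MII. Smc1b lies above 0 at all stages, Espl1 lies between -2.99 and -1.89, and Stag1 and Stag2 cross 0 at L2C.

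Differences in recovery from stage to stage were tested by an interaction term of stage with IP. From MII to L1C only Espl1 of the 9 members tested was called, with log2 IP/input higher by 0.86 ± 0.20 (adjusted p = 0.013), where 3.13% of all genes were called higher and 4.21% lower. From L1C to L2C Stag2 rose by 1.22 ± 0.29 (adjusted p = 0.014) and Stag1 by 0.83 ± 0.22 (adjusted p = 0.021), 2 of 10 members against 5.0% of all genes called higher and 4.47% lower. The call of Stag1 was lost without L1C input replicate 1 (0.70) or L2C input replicate 2 (0.68), which leaves 1 member called. With only the stages compared in the fit Stag1 was not called (0.65). Stag3, at -0.69 (adjusted p = 0.084) as tested, was then called lower (-0.87, adjusted p = 0.029), as it was with DESeq2 (-0.75, adjusted p = 0.024). From MII to L2C Stag2 (1.53 ± 0.30, adjusted p = 0.0011), Stag1 (0.90 ± 0.22, adjusted p = 0.0056) and Espl1 (0.83 ± 0.20, adjusted p = 0.0062) were called higher, against 11.1% of all genes. Stag3 (-0.89 ± 0.27, adjusted p = 0.027) and Pttg1 (-0.53 ± 0.17, adjusted p = 0.033) were called lower, against 9.21%. The 2 calls lower became 1 or 0 without some single libraries and stayed at 2 without others. That of Stag3 was lost without MII input replicate 2 or 3, MII IP replicate 3, L2C input replicate 1 or L2C IP replicate 1 or 3 (-0.89 to -0.76), and without the filter on low counts (-0.94). The call of Pttg1 was lost without MII input replicate 1 or 2, MII IP replicate 1 or 3, L2C input replicate 2 or L2C IP replicate 1 or 3 (-0.54 to -0.45), and with scaling by library size (-0.51). For Smc1b no difference between stages was detected, at 0.14 ± 0.24 from MII to L2C (adjusted p = 0.78). The median change over the members was 0.18, 0.05 and 0.30 for the 3 comparisons, and over all genes tested 0.08, 0.00091 and 0.06.

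In the knockdown experiment Ythdc1 itself was checked first. Its normalised CPM was 201.9 and 207.6 in KD replicates 1 and 2 and 415.3, 421.1 and 379.7 in Ctrl, a log2 change of -0.99 ± 0.08 (adjusted p = 5.2e-08). The merged count table of the authors covers Stag3, Stag2 and Sgo2a of the 10 members, and the counts of KD replicate 3 end at the same place in the annotation. Those 3 genes were therefore also tested with all 3 KD libraries, and the other members rest on KD replicates 1 and 2 against the 3 Ctrl libraries. In that table, scaled to its own total, Ythdc1 was at 498 to 521 CPM in KD replicates 1 and 2, 493 in KD replicate 3 and 1048 to 1138 in Ctrl.

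Stag3 was the member that fell most. Its normalised CPM was 3.32 and 3.31 in KD and 8.12, 12.1 and 7.19 in Ctrl, with no overlap. The log2 change was -1.47 ± 0.27 (adjusted p = 0.00019), and in the table with KD replicate 3 it was -1.46 ± 0.22 (adjusted p = 1.1e-05), from 8.20, 8.32 and 8.46 CPM in KD and 21.8, 32.6 and 19.8 in Ctrl. The other meiotic subunits gave no call. Smc1b held 30.8 and 24.5 normalised CPM in KD and 29.9, 30.3 and 21.2 in Ctrl, which overlapped (log2 change 0.02 ± 0.15, adjusted p = 0.93). Rec8 had 9 and 10 counts in KD and 10, 10 and 4 in Ctrl and was below the filter on low counts, so it was not tested.

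Stag2 was the member that rose most, with 248.4 and 225.3 normalised CPM in KD and 128.4, 124.9 and 102.5 in Ctrl. The groups did not overlap. The log2 change was 1.00 ± 0.10 (adjusted p = 4.3e-07) and 0.99 ± 0.08 in the table with KD replicate 3 (adjusted p = 3.6e-09). Stag1 held 77.7 and 62.7 in KD and 50.3, 49.1 and 44.8 in Ctrl (0.55 ± 0.11, adjusted p = 0.0004). Its groups did not overlap either. Smc3 held 329.4 and 311.6 in KD and 265.2, 264.9 and 242.0 in Ctrl, again with no overlap (0.32 ± 0.08, adjusted p = 0.0022). Rad21 stood at 484.2 and 456.0 in KD and 426.5, 424.2 and 386.4 in Ctrl (0.19 ± 0.08, adjusted p = 0.038). The call of Rad21 was lost without KD replicate 1 (0.15) or any 1 Ctrl library (0.13 to 0.21), with scaling by library size (0.11) and without the filter on low counts (0.17).

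Of the regulators of cleavage, Pttg1 held 1870 and 1906 normalised CPM in KD and 1464, 1455 and 1507 in Ctrl (0.36 ± 0.06, adjusted p = 0.00011). Sgo2a held 98.1 and 91.1 in KD and 72.2, 74.2 and 66.8 in Ctrl (0.41 ± 0.09, adjusted p = 0.0011), and with KD replicate 3 the change was 0.41 ± 0.08 (adjusted p = 8.1e-05). Espl1 was the one of the 3 that fell, from 90.3, 96.4 and 103.9 in Ctrl to 75.8 and 78.4 in KD (-0.33 ± 0.10, adjusted p = 0.0064). None of the 3 had overlapping groups. The call of Espl1 was lost without KD replicate 1 (-0.30), which leaves 1 member called lower.

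In counts, 6 of the 9 members tested rose and 2 fell, against 30.5% and 36.4% of all 17074 genes tested, and the median log2 change was 0.32 over the members and -0.09 over all genes. In the table with KD replicate 3, 2 of 3 rose and 1 fell, against 33.5% and 37.4% of its 7433 genes, whose median moved by -0.12 under scaling by library size. By the study's thresholds (unadjusted P, here of edgeR, under 0.05 and a log2 change over 1 in size) only Stag3 was called, where 24.5% of all genes were lower and 14.4% higher, and the table with KD replicate 3 gave the same (22.5% and 14.7%). KD and Ctrl libraries also differed in markers of stage. The oocyte list of 9 genes summed to 775 to 847 normalised CPM in KD and 1617 to 1747 in Ctrl, with all 9 above 3 counts in both. The 2-cell list of 8 genes summed to 376 to 447 in KD and 1501 to 1673 in Ctrl, with 7 of 8 above 3 counts in both. The part of these differences in the changes of the members was not tested. The cumulus list of 12 genes summed to 38.2 to 41.7 normalised CPM in KD and 28.7 to 34.1 in Ctrl, with 4 and 5 of them above 3 counts and Ptx3, Fshr, Inhba and Vim at 0 in both. Its leading genes were Amhr2 (means of 30.1 and 20.1) and Tnfaip6 (8.61 and 7.57). The sperm list summed to at most 0.107 in KD and 4.13 in Ctrl.

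**Figure D4:**
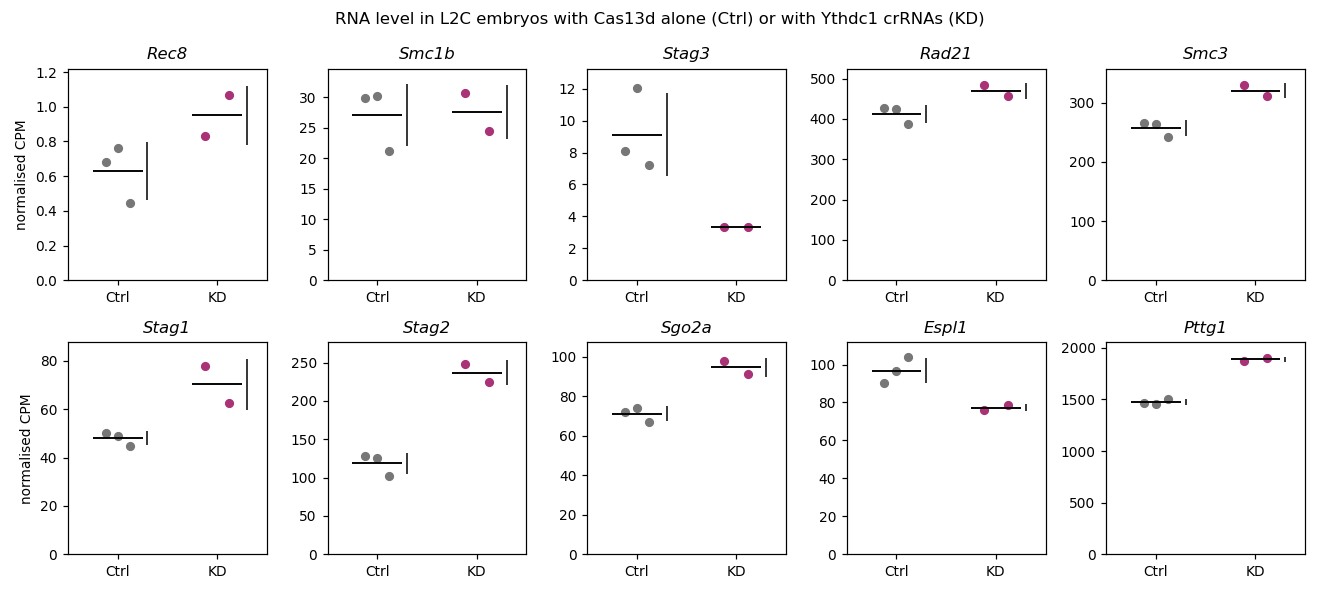
Normalised CPM (y axis, linear, starting at 0) of the 10 genes in L2C embryos injected with Cas13d mRNA alone (Ctrl, n = 3) or with Ythdc1 crRNAs as well (KD, n = 2, the libraries that cover the whole annotation). Points are libraries, horizontal bars are means and vertical bars span 1 SD either way. Stag3 is lower in KD at 3.31 and 3.32, and Stag2 is higher at 225.3 and 248.4.

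The wider pathway was followed through 63 genes of cohesion and chromosome segregation in 7 roles. Genes under 1 normalised CPM in every library of a stage compared, a limit chosen after their values were seen, are left out of the counts at that step (Ppp2cb and Hormad1 at the first, Ppp2cb, Sgo2b and Rad21l at the second). From MII to L1C 17 of the other 61 rose, 24 fell and 20 were not called, with a median log2 change of -0.17 against 0.16 over all genes, of which 31.9% rose and 24.3% fell. From L1C to L2C 22 of the other 60 rose, 27 fell and 11 were not called (median -0.12 against 0.17), where 44.1% of all genes rose and 38.8% fell. Condensin, the complex that compacts mitotic chromosomes, had 5 of 8 members lower and 1 higher at the first step (median -0.82). The chromosomal passenger complex, which corrects kinetochore attachment, had 4 of 6 lower and 2 higher (median -0.81). Of the 9 genes of cohesin loading, acetylation and release, 2 rose, 2 fell and 5 were not called at the first step. Of the other 13 of centromere protection, 6 rose and 4 fell.

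Among the 63, the rises of largest size at the first step were those of Cdk1, the mitotic kinase (log2 change 4.38 ± 0.15, adjusted p = 8.1e-11), Sycp1, of the synaptonemal complex (3.52 ± 0.13, adjusted p = 8.5e-11), and Pds5b, a regulator of cohesin release (3.44 ± 0.12, adjusted p = 8e-11). Pds5b held 30.3, 30.2 and 27.1 normalised CPM at MII and 329.5, 310.9 and 311.0 at L1C, so the groups were far apart. The falls of largest size were those of Smc4 (-2.55 ± 0.18, adjusted p = 5.2e-08) and Smc2 (-1.47 ± 0.16, adjusted p = 2.9e-06), the SMC pair of condensin, and of Ppp2r1a, the scaffold of the PP2A phosphatase that works with shugoshin (-1.53 ± 0.15, adjusted p = 1.5e-06).

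At the second step the genes that rose included the condensin subunit Ncapd2 (4.15 ± 0.18, adjusted p = 5.1e-11) and Pds5a, the partner gene of Pds5b (3.45 ± 0.18, adjusted p = 3.4e-10). Pds5b itself averaged 122 ± 7 normalised CPM at L2C while Pds5a went from 3.35 ± 0.43 at L1C to 36.5 ± 4.0. The PP2A catalytic subunit Ppp2cb averaged 0.314 ± 0.284 normalised CPM at L1C and 9.44 ± 1.98 at L2C. Those that fell included Ccnb1, cyclin B1 and a target of the anaphase-promoting complex (-2.81 ± 0.19, adjusted p = 4.6e-09), and the condensin subunit Ncapg (-2.30 ± 0.18, adjusted p = 2.3e-08). Sgo2b, a close copy of Sgo2a, averaged 21.1 ± 3.6 normalised CPM in MII oocytes, 7.61 ± 2.13 in L1C embryos and 0.178 ± 0.138 in L2C embryos. How its reads were shared out with Sgo2a is uncertain. No fold is given for Ppp2cb or Sgo2b, which lay under 1 normalised CPM in each L1C or each L2C library. Of 8 condensin genes 3 rose and 4 fell at this step, and of the 19 genes of the anaphase-promoting complex and separase inhibition 9 rose and 7 fell, against 44.1% and 38.8% of all genes.

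**Figure D5:**
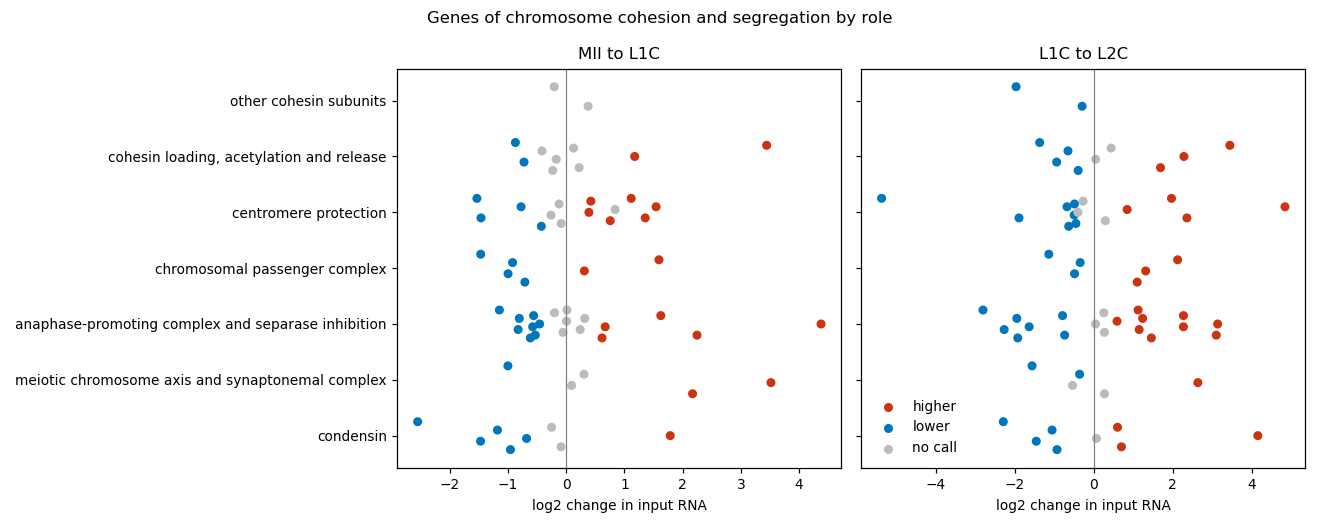
Log2 change of input RNA (x axis) from MII to L1C (left) and from L1C to L2C (right) for 63 genes of cohesion and segregation, grouped by role (y axis). Each point is a gene, coloured by its call at an adjusted p under 0.05. At the first step 5 of the 8 condensin genes are lower, and at the second 22 of the 60 genes counted are higher and 27 lower. Genes left out of the counts for low levels (Ppp2cb, Hormad1, Sgo2b and Rad21l) are drawn too.

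Recovery in the IP of the same 63 genes was split, with 18 higher and 22 lower at MII, 10 and 22 at L1C, then 22 and 22 at L2C (median log2 IP/input 0.04 at each stage). The genes left out of the input counts for low levels are kept in these counts. At MII Ppp2cb is among the lower and Hormad1 among the higher, and at L2C Sgo2b is among the higher. Of all genes 17.7% were higher and 21.0% lower at MII, 15.8% and 18.2% in L1C embryos, and 22.0% and 22.0% in L2C embryos. In KD embryos 28 of the 61 tested genes were higher and 9 lower than in Ctrl (median 0.20), against 30.5% and 36.4% of all genes tested. Condensin had 5 of 8 higher and none lower (median 0.31), and the chromosomal passenger complex 5 of 6 higher and none lower (median 0.27). The meiotic chromosome axis and synaptonemal complex had 1 of 5 higher and 2 lower (median -0.49). Smc1a, the mitotic counterpart of Smc1b, fell by 0.40 (SE 0.09, adjusted p = 0.00099), from 124 ± 3 normalised CPM in Ctrl (n = 3) to 94.3 ± 6.4 in KD (n = 2), while Smc3, Rad21, Stag1 and Stag2, the other subunits of the mitotic ring, rose.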

How the data were processed

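SLIM-seq and knockdown libraries were read as deposited. For SLIM-seq the authors quantified reads with kallisto, and the deposited estimated counts and TPM are per gene span of GENCODE M21 (GRCm38), introns included, as 54900 of 55471 spans show. For the knockdown the authors trimmed reads with Trimmomatic and aligned them with HISAT2 and the deposited counts per gene came from featureCounts; 5 of the 6 libraries cover the whole annotation and the merged table covers 25739 genes. Columns of no sample numbered 0. Libraries held 3276715 to 39739950 counts, and no pair of replicates agreed within sampling noise.

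Estimated counts were rounded, filtered with filterByExpr, scaled by TMM and tested with edgeR 4.0.16 (R 4.3.3, glmQLFit and glmQLFTest) with Benjamini-Hochberg adjustment over all genes tested, called under 0.05. IP was set against input, and stages were compared for recovery, in 1 fit of 18 libraries; inputs were fitted as 9 libraries, and the knockdown without and with KD replicate 3. Ratios of pairs within a library were tested by an exact permutation F test (Python 3.11.15). The fits were tested on simulated data. Alternatives were scaling by library size, no filter, DESeq2 1.42.0, a replicate block, only the stages compared, the study's thresholds with P from edgeR and leaving out each library; a scale per exon length and a fit of inputs with all 18 libraries were chosen after seeing the data. The members, the lists and the tests were chosen with earlier results of these data known. Named beside the members were Smc1a, Ythdc1, the 3 protein-coding genes closest in course to each meiotic subunit, and the 3 called pathway genes of largest size in each direction at each step. Ipo4, Kctd18, Sgo2b's sharing of reads, and marker genes at 0 or leading a list were named after their values were seen. Overlapping pseudogenes of Smc1b, Stag1 and Espl1 had at most 11.1 counts.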

Additional observations from a re-analysis of the deposited data

Results flagged for a closer look

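Differences of log2 IP/input between stages were tested by the interaction of IP and stage (edgeR's quasi-likelihood test with Benjamini-Hochberg adjustment over all genes tested). Rec8 could be tested only from L1C to L2C. Of the 9 members tested from MII to L1C, 1 was called higher. From L1C to L2C 2 of 10 were called higher. From MII to L2C 3 of 9 were called higher and 2 lower. From MII to L1C the difference was 0.86 for Espl1. From L1C to L2C it was 0.83 for Stag1 and 1.22 for Stag2. From MII to L2C it was 1.53 for Stag2, 0.90 for Stag1, 0.83 for Espl1, -0.89 for Stag3 and -0.53 for Pttg1. Of all genes 3.13% were called higher and 4.21% lower from MII to L1C, 5.0% and 4.47% from L1C to L2C, and 11.1% and 9.21% from MII to L2C. The calls of Stag3 and Pttg1, and that of Stag1 from L1C to L2C, were lost when single libraries were left out and with a replicate block. All 3 L2C IP libraries of Stag1 and Stag2 were above the mean of the inputs of their stage, and all 6 earlier ones below it. Against input, Stag2 was not called at L2C and Stag1 was not called at L1C. No Dixon test for a single outlying library was run, as groups hold 3 libraries.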

How the results depend on the processing

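Replicate numbers did not pair the libraries (correlation of deviations from group means between -0.13 and 0.107). With a replicate block 93 of 99 member values kept their direction and side of the threshold. The block gave 2 members lower in the MII IP (Stag1 at -0.41, adjusted p = 0.088, and Stag3 at -0.59, adjusted p = 0.069, were not called), 1 with higher recovery from L1C to L2C (Stag1 at 0.83, adjusted p = 0.069, was not), 0 with lower recovery from MII to L2C (Stag3 at -0.90, adjusted p = 0.06, and Pttg1 at -0.54, adjusted p = 0.075, were not), and -0.13 for Smc1b in KD. The study states that input and IP RNA came from the same batches, and not that the numbers match them. The same held for 84 of 99 values under library size scaling, 88 without a filter, 93 with DESeq2, 75 of 87 with only the stages compared and 25 of 30 in the fit of all 18 libraries. Members lower in the MII IP numbered 2 under library size scaling, no filter, DESeq2 and only the stages compared (2 to 4 leaving out 1 library). Ranges in brackets leave out 1 library with all other settings unchanged. Members higher in the L2C IP numbered 7 under library size scaling and 5 by the study's thresholds (1 to 5 leaving out 1). Recovery from L1C to L2C was higher for 1 member with only the stages compared (1 to 2 leaving out 1) and lower for 1 with DESeq2 and with only the stages compared. Recovery from MII to L2C was lower for 1 under library size scaling and no filter (0 to 2 leaving out 1). By the study's thresholds KD called 0 members higher and 1 lower over the whole annotation, and 0 higher in the merged table. By adjusted p, KD called 1 to 2 members lower leaving out 1 library.

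The change of Rec8 to Rad21 from L1C to L2C was -2.05 to -1.72 leaving out 1 library and -1.56 with a pseudocount of 1 on TPM, and with that pseudocount the change of Smc1b to Smc1a from MII to L2C was 0.16 against -0.72 without it. Values near 0 turned sign without passing a test. For recovery from MII to L1C these were Smc1b (0.027, library size) and Stag1 (-0.0095, only the stages compared). From L1C to L2C Rec8 gave -0.021 (library size), -0.0080 (no filter), -0.028 (DESeq2) and -0.16 (only the stages compared), Rad21 gave -0.033, -0.030, -0.029 and -0.17 in the same order, and with only the stages compared Smc1b gave -0.0041 and Smc3 -0.11. From MII to L2C Smc1b gave -0.025 with only the stages compared. In the fit of all 18 libraries input Rec8 from L1C to L2C gave -0.043 and Espl1 from MII to L2C -0.23. Smc1b in KD gave -0.056 under library size scaling and -0.0039 without a filter. Leaving out 1 library, the ranges that crossed 0 were -0.040 to 0.10 (Smc3) and -0.11 to 0.20 (Sgo2a) in the MII IP. They were -0.19 to 0.11 (Smc1b) and -0.011 to 0.20 (Stag1) for recovery from MII to L1C, and -0.026 to 0.28 (Smc1b) from MII to L2C. From L1C to L2C they were -0.10 to 0.10 (Rec8), -0.089 to 0.066 (Rad21), -0.066 to 0.15 (Smc3), -0.036 to 0.74 (Sgo2a) and -0.13 to 0.13 (Espl1). For inputs from MII to L1C they were -0.19 to 0.0091 (Stag1) and -0.37 to 0.017 (Stag2), and for Smc1b in KD -0.15 to 0.18. The cause was not tested. Depth limits Rec8 most, with at most 55.3 counts in a SLIM-seq library and 10 in a knockdown library.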
